A study of Mus musculus with 4 samples.

Results

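Micro-C maps which stretches of DNA lie near each other in the nucleus, by fixing chromatin, digesting it to nucleosomes with micrococcal nuclease (MNase) and joining neighbouring ends. The values below describe the large cluster of replication-dependent histone genes on mouse chromosome 13 (Hist1). The members are pairs of 8 kb bins of which each bin overlaps 1 of the 2 parts of the cluster, chr13:21696001-22064000 (the proximal part, 46 bins) or chr13:23520001-23784000 (the distal part, 33 bins), in the assembly GRCm38 (mm10). These bins form 3160 possible pairs, of which 1518 join a bin of each part, 1035 and 528 join different bins of the same part, and 79 are single bins. Of these, 1344 were listed in embryonic stem cells (ESCs) and 1568 in motor neurons (MNs), out of 23095428 and 21005697 listed pairs over all chromosomes.

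The cells were E14, an established mouse ESC line, kept in medium with LIF and 2 kinase inhibitors, and cervical MNs made from them through embryoid bodies with retinoic acid and a smoothened agonist. In each cell state WT cells were set beside cells in which PATZ1, a zinc finger protein, was knocked out with Cas9 (PATZ1 KO). Knockout lines were grown from single clones, and which clone gave the libraries is not given in the sources used here. There was 1 library in each of the 4 groups, so no difference below has a replicate check and no test was made. All intervals are 95% intervals for counting error alone and take the listed pairs as given. They leave out the scatter in which pairs came to be listed, so they can be too narrow. Libraries are told apart in the lists by a number alone. Here 1 was taken for WT and 2 for PATZ1 KO, following the name of the comparison, and each genotype direction depends on that.

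Replication-dependent histone genes encode the H1 linker and the H2A, H2B, H3 and H4 core histones that package newly copied DNA. They are expressed in S phase, have no introns, and end in a conserved stem-loop in place of a poly(A) tail. In nuclei the clustered genes gather in the histone locus body, where the factors for their transcription and 3′ end processing are concentrated. Both parts of Hist1 were dominated by such genes. The proximal part held 23 of them (1 H1, 7 H2A, 8 H2B, 2 H3 and 5 H4) beside 4 other protein-coding genes, the olfactory receptor gene Olfr1359, the zinc finger gene Zfp184, Pom121l2, and Prss16, a thymic protease gene. The distal part held 28 (4 H1, 5 H2A, 6 H2B, 7 H3 and 6 H4) beside Hfe, an iron homeostasis gene, Trim38, and Hist1h1t, a testis-specific H1 gene that was not counted as replication-dependent. Between the parts lay 1456 kb with 35 Vmn1r genes, which encode vomeronasal pheromone receptors (the Vmn1r stretch, chr13:22064001-23256000), and then the zinc finger gene Zfp322a, Abt1 and the butyrophilin genes Btn1a1 and Btn2a2 (the Abt1-Btn stretch, chr13:23256001-23520000).

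The sequence that marks these genes is shown first, because it was not used to choose the members. Letters matching the histone 3′ stem-loop, read on both strands of GRCm38, occurred 57 times on chromosome 13, and 50 of these matches lay in histone bins of the 2 parts, where a histone bin is a bin that overlaps a replication-dependent histone gene. A match began within 100 bases past the coding sequence of 45 of the 51 genes, in 5 forms. The 3 most frequent forms, with the loop in capitals, belonged to 29, 7 and 6 genes and are named by a gene that carries each.

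Hist1h1a: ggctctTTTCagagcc

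Hist1h4c: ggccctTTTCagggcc

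Hist1h2bb: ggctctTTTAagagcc

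Upstream sequences are shown for the pair of bins with the most contacts between the parts in WT ESCs, given below. In the proximal part this bin holds the H2A gene Hist1h2ah and the H2B gene Hist1h2bk, which are transcribed away from each other from starts 177 bases apart (chr13:22035644-22035820, plus strand). In the distal part it holds the linker histone gene Hist1h1d, of which the 250 bases before the start are shown (chr13:23554782-23555031, plus strand, RefSeq promoters on GRCm38). Capitals mark the letters of the TATA box (TATAAA), the CCAAT box, the H1 box (AAACACA) and the octamer known from H2B promoters (ATTTGCAT). Matches were taken on either strand, with no mismatch and anywhere in the window, so their distance from the start was not checked.

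Hist1h2ah-Hist1h2bk: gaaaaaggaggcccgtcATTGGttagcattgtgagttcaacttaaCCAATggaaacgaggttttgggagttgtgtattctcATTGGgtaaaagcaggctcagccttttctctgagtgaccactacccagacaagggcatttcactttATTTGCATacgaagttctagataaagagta

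Hist1h1d: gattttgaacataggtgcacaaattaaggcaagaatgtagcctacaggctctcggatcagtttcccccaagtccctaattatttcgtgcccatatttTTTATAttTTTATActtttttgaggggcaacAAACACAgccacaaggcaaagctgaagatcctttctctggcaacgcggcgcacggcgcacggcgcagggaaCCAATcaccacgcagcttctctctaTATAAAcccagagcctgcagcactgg

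RefSeq held a promoter for 48 of the 51 genes. CCAAT stood in 40 of these 48 (83.3%), against 34.5% of 27025 mouse promoters of the same length, and in all 5 H1, 12 H2A, 13 H2B and 7 H3 promoters but in 3 of 11 H4 promoters. TATAAA stood in 24 of 48 (50%) against 13% of all promoters, AAACACA in 4 of the 5 H1 promoters against 6.22%, and ATTTGCAT in 4 of 13 H2B and 4 of 12 H2A promoters against 1.61%. Divergent H2A and H2B genes share their upstream bases, so these counts are not independent. The letters describe the windows and do not show that a factor was bound.

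Chromosome 13 held 7736484 and 7197308 contacts in ESCs (WT, then PATZ1 KO) and 4993195 and 5241751 in MNs. Sets of 4 values below follow this order: WT ESCs, their knockout, WT MNs, their knockout. The bins of the parts were covered below the chromosome's mean bin, at 0.735 and 0.732 times the mean in WT ESCs and at 0.853 and 0.790 times in WT MNs (the proximal and the distal part). Bins chr13:21800001-21816000 and chr13:21832001-21840000, with the gene groups Hist1h2bq, Hist1h2ao and Hist1h4m and Hist1h2br, Hist1h2ap and Hist1h4n, had no listed contact in either cell state and entered no value. Contacts were summed over blocks of pairs and divided by the sum expected from the mean of all usable pairs on chromosome 13 at the same distances in the same library. A value of 1 is therefore the chromosome's average for that distance.

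Contact between the parts was several times the average for its distance, while contact inside each part was close to it. Between the parts, 384 contacts were counted in WT ESCs against 63.2 expected, a ratio of 6.07 (5.48 to 6.71). PATZ1 KO ESCs held 337 contacts, a ratio of 5.41 (4.85 to 6.02). MNs had ratios of 6.73 (6.22 to 7.26) in WT with 661 contacts and 6.60 (6.11 to 7.12) in PATZ1 KO with 673. All 4 libraries thus held an excess over 1464 to 2080 kb. Within the proximal part the ratio was 0.983 and 0.877 in ESCs (WT, then PATZ1 KO) and 1.07 and 0.999 in MNs. Within the distal part it was 0.986 and 0.890 in ESCs and 0.921 and 0.841 in MNs. These within-part ratios depend on the low coverage of the bins: with counts divided by bin coverage they rose to between 1.37 and 1.89.

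The size of the excess depends on how coverage and unlisted pairs are treated. Divided by bin coverage the ratios were 12.96, 14.9, 10.8 and 12.8. A pair is listed if each library of a cell state has 1 contact or more, which removes most pairs at this distance, and a sparse background loses more of its contacts than a denser block. When the contact rate was fitted with a Poisson model of that rule, with 1 rate per block and both libraries of a cell state together, the ratio between the parts was 2.60 in ESCs and 2.92 in MNs. Among listed pairs alone, contacts per pair were 1.5 and 1.34 times the mean of listed pairs in WT and PATZ1 KO ESCs and 1.24 and 1.22 times in WT and PATZ1 KO MNs. The excess was above 1 under each treatment, and its size cannot be read from the ratios of 5.41 to 6.73 alone.

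Most of the excess lay in more pairs being seen at all. Of the 1419 usable pairs between the parts, 207 (14.6%, 12.8 to 16.5) reached 2 times the distance mean in both ESC libraries, against 3.7% of all chromosome 13 pairs at these distances. In both MN libraries 407 pairs (28.7%, 26.3 to 31.1) did, against 5.35%. The mean expected at these distances was at most 0.109 contacts per pair, so reaching 2 or 3 times the mean was the same as being listed, and both libraries of a cell state share 1 count for that reason. No pair between the parts held more than 9 contacts.

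When the same 2 windows were slid along chromosome 13 at their own spacing, 167 of 13259 placements (1.26%) reached the ratio of the parts in WT ESCs. The share was 1.68% in PATZ1 KO ESCs, and 1.41% and 1.57% in MNs. The median placement had 0.612 in WT ESCs and 0.469 in WT MNs. Overlapping placements share bins, so these shares describe the chromosome and are no test. The parts thus stood high on the chromosome but were not its extreme, since the placement with the highest ratio in WT ESCs reached 13.9. Windows were also ranked by number of protein-coding genes, with vomeronasal and olfactory receptor genes left out. Where both windows were in the top tercile, 1.12% of 2415 placements in WT ESCs and 0.782% of 2429 in WT MNs reached the parts' ratio.

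**Figure D1:**
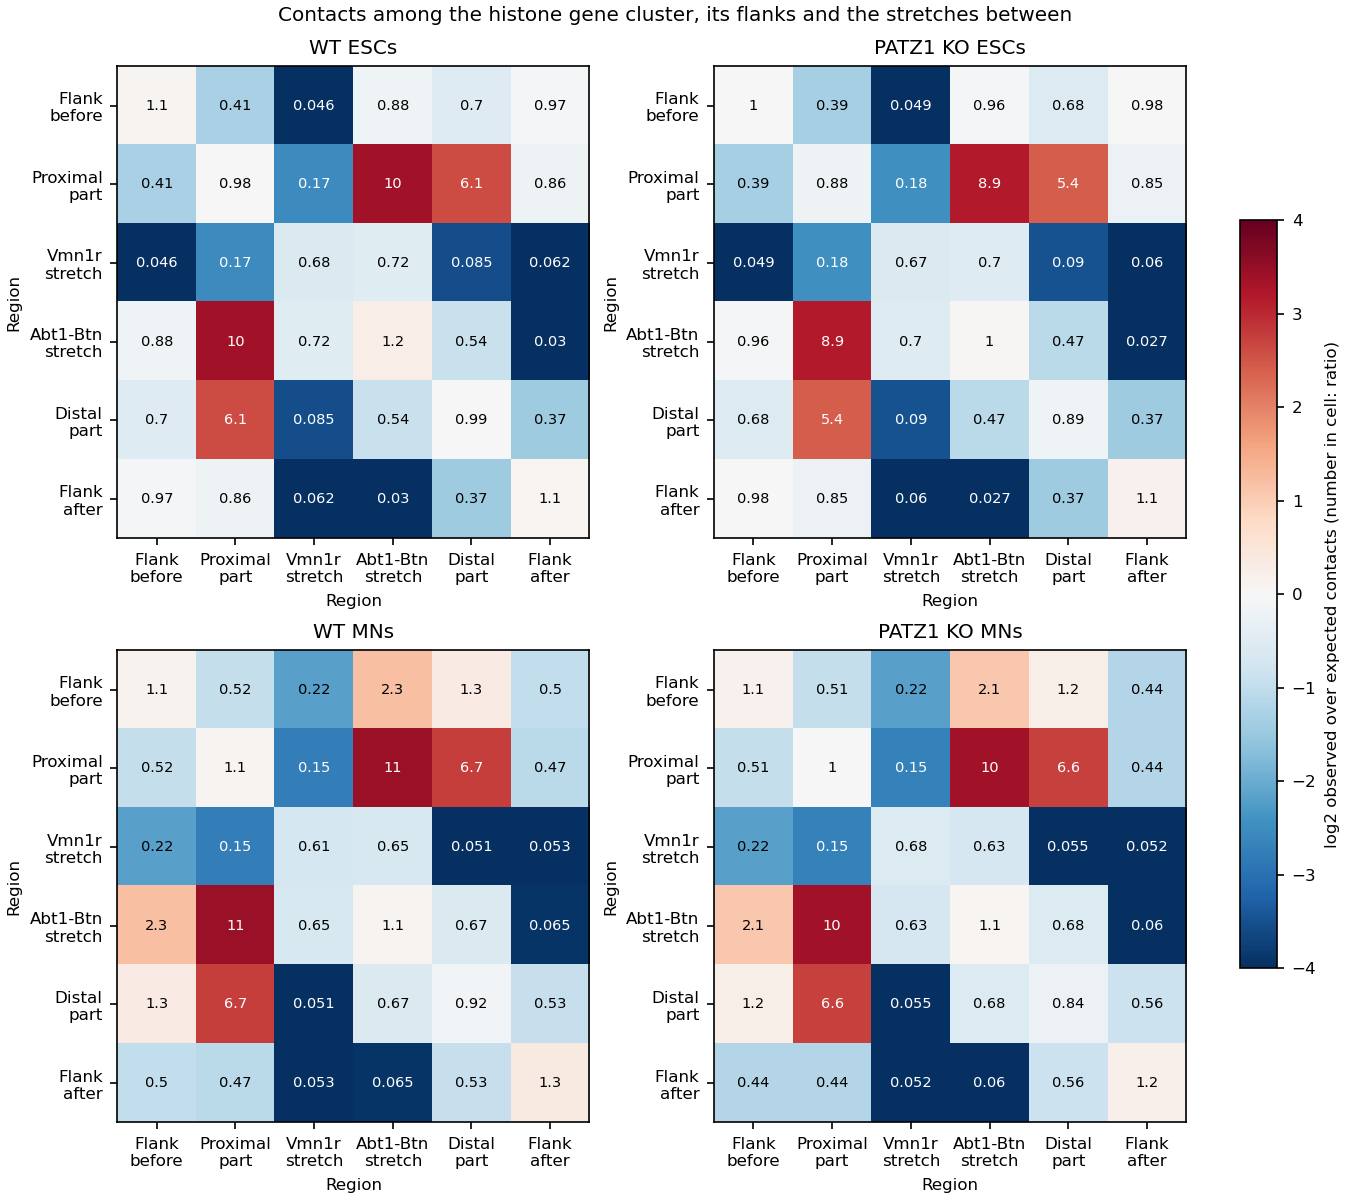
Observed over expected contacts (number in each cell, colour as log2, clipped at -4 and 4) among the 2 parts of Hist1, the stretches between them and flanks as long as each part, in the 4 libraries. The proximal part is red with the Abt1-Btn stretch and the distal part in every library, and blue with the Vmn1r stretch that lies between.

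The excess skipped the receptor genes next to the proximal part. With the Vmn1r stretch the proximal part had ratios of 0.169, 0.184, 0.148 and 0.153. The distal part had still less contact with that stretch, at 0.0854, 0.0903, 0.0515 and 0.0550. Both stayed below average but moved by over 2 times with the treatment of the data: for the proximal part the ratios were 0.470, 0.527, 0.422 and 0.407 divided by bin coverage, and 0.356 in ESCs and 0.339 in MNs with unlisted pairs modelled. For the distal part they were 0.211, 0.246, 0.137 and 0.149 divided by coverage, and 0.262 in ESCs and 0.205 in MNs modelled. With the Abt1-Btn stretch, by contrast, the proximal part had more contact than with the distal part, at 10.4 (9.75 to 11.0 in WT ESCs), 8.92, 11.0 and 10.3. Divided by coverage the gap narrowed, to 13.7 against 12.96 in WT ESCs, 15.4 against 14.9 in PATZ1 KO ESCs, 12.4 against 10.8 in WT MNs and 13.4 against 12.8 in PATZ1 KO MNs. With unlisted pairs modelled it was 3.70 against 2.60 in ESCs and 4.11 against 2.92 in MNs. The distal part borders that stretch, yet the contact between those neighbours was below average, at 0.543 in WT ESCs and 0.675 in WT MNs. The flank after the distal part had no such excess with the proximal part, at 0.862 in WT ESCs and 0.473 in WT MNs.

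Bin by bin, contact of the proximal part ran without a break from the Abt1-Btn stretch into the histone genes. Its highest bins were chr13:23400001-23416000 beside Abt1, which encodes a basal transcription activator, with 121 and 113 contacts in WT ESCs and ratios of 39.5 and 37.4. These bins hold no protein-coding gene and were singled out after their values were seen. A further rise stood at the border of the distal part, where bin chr13:23520001-23528000, with no protein-coding gene, had 56, 57, 71 and 64 contacts with the proximal part. The next bin, chr13:23528001-23536000 with Hist1h4h, Hist1h2af and Hist1h3g, had 57, 44, 49 and 46. High contact with the proximal part was thus not limited to histone bins.

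**Figure D2:**
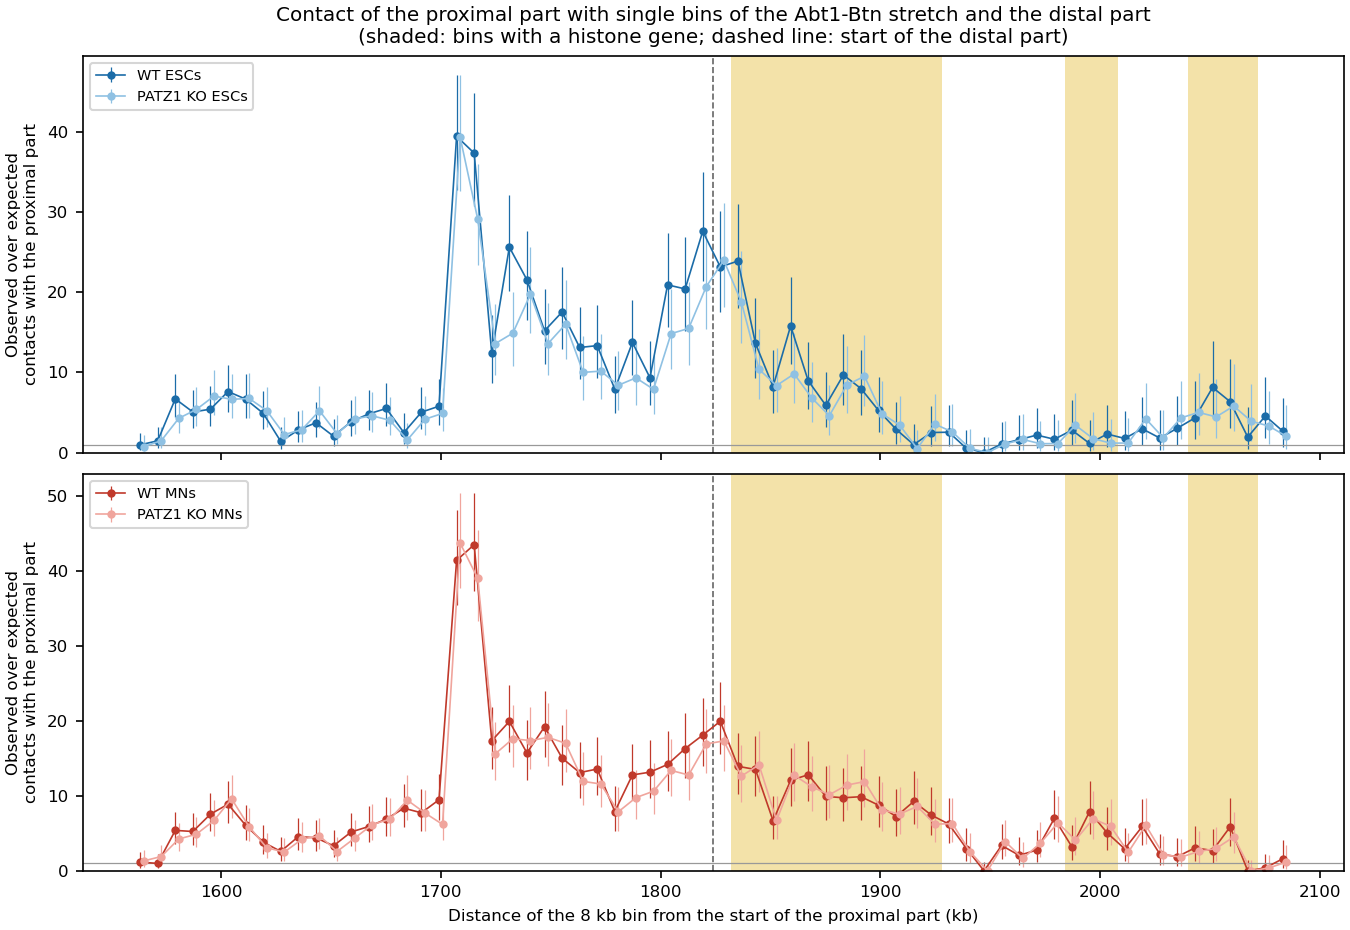
Contact of the whole proximal part with each 8 kb bin of the Abt1-Btn stretch and the distal part (observed over expected, bars 95% Poisson intervals) against distance from the start of the proximal part. The values peak at 1704 kb at 39.5 in WT ESCs, rise again at the border of the distal part, and fall across the first shaded run of histone bins.

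Histone content nevertheless separated the pairs between the parts. For pairs of 2 histone bins the ratio was 16.6 (13.9 to 19.8) with 130 contacts in WT ESCs and 14.9 (12.3 to 17.9) with 115 in PATZ1 KO ESCs. In MNs it was 12.7 (10.8 to 14.8) with 156 contacts in WT and 13.1 (11.2 to 15.3) with 168 in PATZ1 KO. For pairs with 1 histone bin it was 4.96, 4.12, 6.67 and 6.56, and for pairs with none 3.92, 3.97, 4.52 and 4.14. The intervals of pairs of 2 histone bins did not meet those of the other pairs between the parts in any library. Relative to all other pairs between the parts, pairs of 2 histone bins had 3.63 (2.91 to 4.50) and 3.67 (2.91 to 4.62) times the contact for their distance in WT and PATZ1 KO ESCs, and 2.16 (1.79 to 2.58) and 2.32 (1.94 to 2.77) times in WT and PATZ1 KO MNs. With unlisted pairs modelled these were 2.15 in ESCs and 1.65 in MNs.

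The preference held on both sides. Histone bins of the proximal part had a ratio of 6.10 (5.10 to 7.23) with the Abt1-Btn stretch in WT ESCs and of 4.23 with the other bins of the distal part, each below their 16.6 with its histone bins. Other bins of the proximal part showed the opposite order, with 11.4 (10.7 to 12.2) for the Abt1-Btn stretch and 5.09 (4.32 to 5.97) for the histone bins of the distal part. In WT MNs the same comparisons gave 8.80, 4.80 and 12.7 for histone bins and 11.6 and 7.01 for other bins. PATZ1 KO cells had this order too, with 5.25, 3.9 and 14.9 for histone bins in ESCs and 7.38, 4.89 and 13.1 in MNs. These class ratios were not divided by coverage. For the whole proximal part that division left 13.7 with the Abt1-Btn stretch against 12.96 with the distal part in WT ESCs. How far the order of the other bins depends on coverage was not tested.

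**Figure D3:**
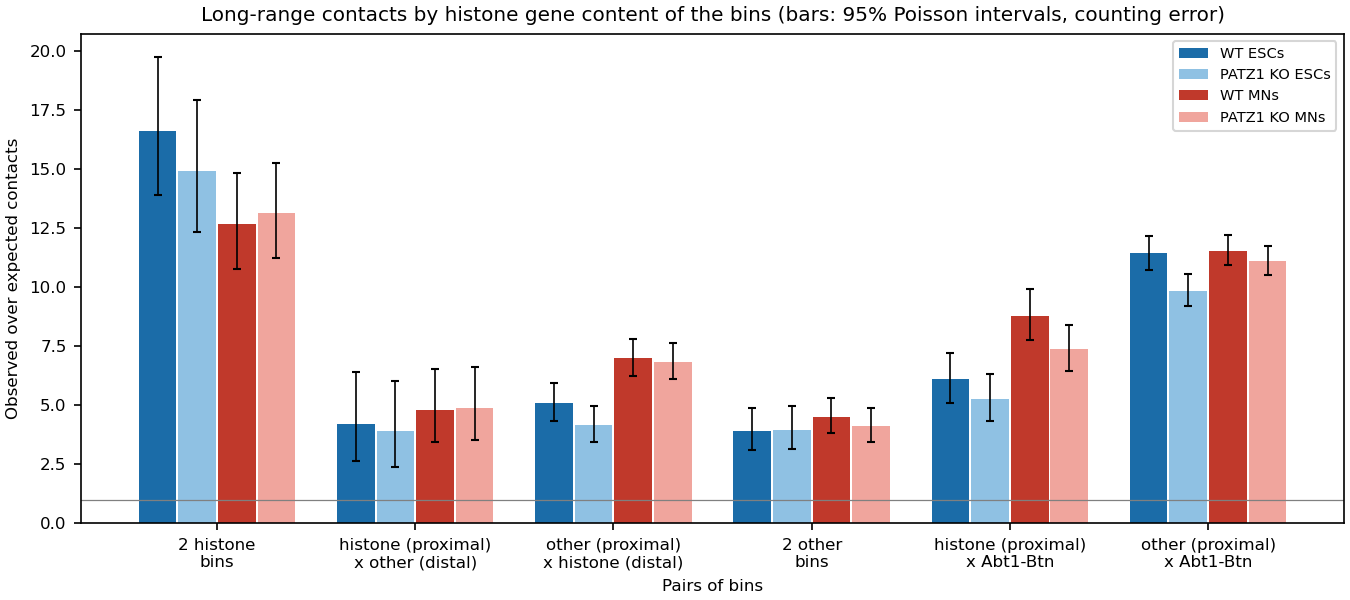
Observed over expected contacts for pairs of bins between the parts, and between the proximal part and the Abt1-Btn stretch, split by whether each bin holds a histone gene; bars show 95% Poisson intervals for 1 library each. Before division by coverage, pairs of 2 histone bins are highest in all 4 libraries. The other bins of the proximal part are then higher with the Abt1-Btn stretch than with the distal part. In both MN libraries the intervals of these 2 highest classes overlap.

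The preference also stood when spacing was held closer. When pairs were split into 3 ranges of distance, pairs of 2 histone bins had 3.58 (2.61 to 4.85) times the contact of other pairs at 1464 to 1664 kb in WT ESCs, 6.03 (4.12 to 8.80) times at 1672 to 1872 kb, and 2.54 (1.31 to 4.81) times at 1880 to 2080 kb. PATZ1 KO ESCs gave 2.70, 7.39 and 2.82. In WT MNs the figures were 1.32 (0.897 to 1.88), 3.59 and 2.03, and in PATZ1 KO MNs 1.79, 3.50 and 2.07. The nearest range in WT MNs was the case in which the interval held 1. Inside the parts the classes differed less: in WT ESCs pairs of 2 histone bins had 1.20 and 1.11 in the proximal and the distal part, pairs with 1 histone bin 0.696 and 0.864, and pairs with none 1.09 and 0.980.

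The histone bins form 5 runs separated by at least 4 other bins. In the proximal part run A (chr13:21712001-21840000) held 18 genes from Hist1h2bl to Hist1h2br and run B (chr13:22032001-22048000) held 5, Hist1h2ah, Hist1h2bk, Hist1h4i, Hist1h2ag and Hist1h2bj. In the distal part run C (chr13:23528001-23624000) held 16 genes from Hist1h4h to Hist1h1e, run D (chr13:23680001-23704000) Hist1h2ac, Hist1h2bc and Hist1h4c, and run E (chr13:23736001-23768000) 9 genes from Hist1h1c to Hist1h1a. In ESCs runs B and C had the densest contact of these, with 59 contacts and a ratio of 36.6 (27.9 to 47.2) in WT ESCs, and 38 and 23.9 in PATZ1 KO ESCs. In MNs the same runs had 33 contacts and 14.4 in WT, and 45 and 19.1 in PATZ1 KO. Runs A and C had 12.3, 13.3, 15.6 and 14.3. Run B with run E, at the far end, had 7 and 9 contacts in WT and PATZ1 KO ESCs (18.2 and 23.7) and 2 in each MN library, while no contact was listed between run B and run D in ESCs, where 0.314 were expected in WT, too few for a count of 0 to be read.

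**Figure D4:**
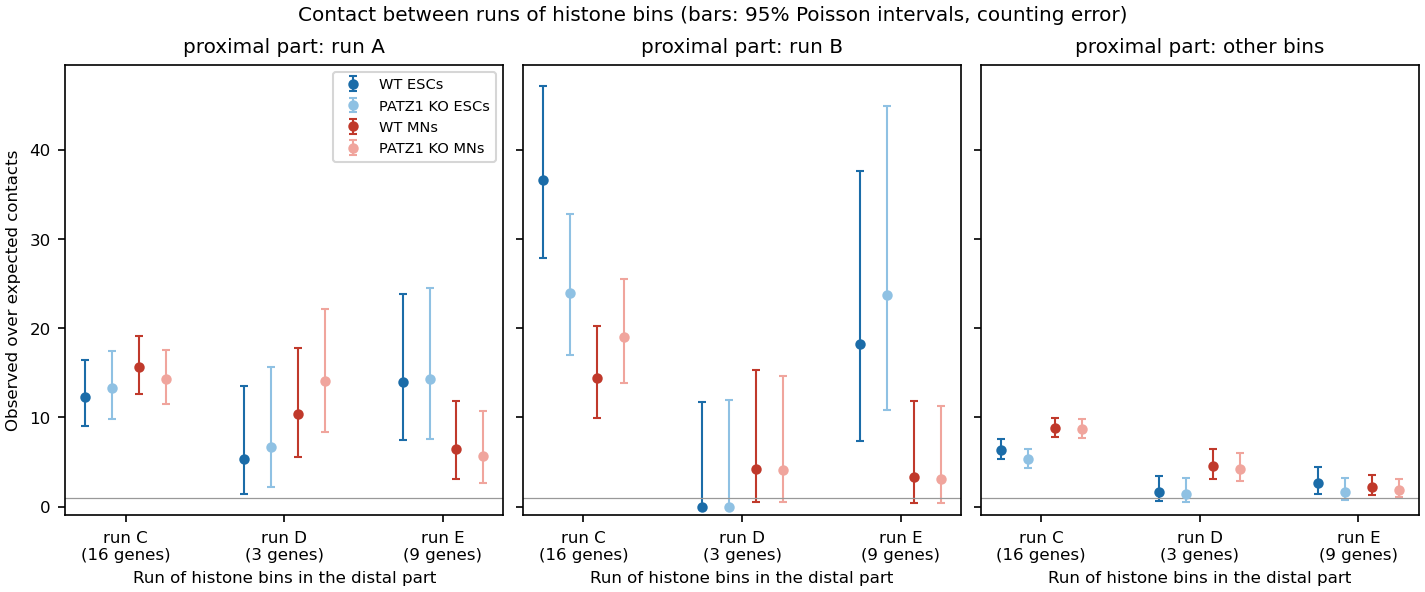
Observed over expected contacts of runs A and B and of the other bins of the proximal part (panels) with runs C, D and E of the distal part, in the 4 libraries; bars show 95% Poisson intervals. Run C with run B is highest in WT ESCs at 36.6, and run E lies lower in MNs than in ESCs for runs A and B.

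The far runs of the distal part differed between the cell states in opposite directions. Run D had 11 contacts with the whole proximal part in each ESC library, ratios of 2.09 (1.04 to 3.73) and 2.12 (1.06 to 3.79), against 45 and 49 in WT and PATZ1 KO MNs, ratios of 5.38 (3.92 to 7.20) and 5.65 (4.18 to 7.47). Run E went the other way, with 33 and 30 contacts in WT and PATZ1 KO ESCs (5.20 and 4.80) and 30 and 27 in WT and PATZ1 KO MNs (2.92 and 2.53). On the log2 scale MNs over ESCs was 1.37 (0.39 to 2.47) in WT and 1.41 (0.45 to 2.51) in PATZ1 KO for run D, and -0.83 (-1.60 to -0.08) and -0.92 (-1.73 to -0.13) for run E. Counted over all pairs, run D was thus higher and run E lower in MNs in both genotypes. Both genotypes of a cell state share the same listed pairs, so they do not check each other independently. These differences kept their direction when counts were divided by coverage (1.24 and 1.00 for run D, -1.49 and -1.77 for run E) and with unlisted pairs modelled (0.81 and -0.47). Over pairs listed in both cell states, with at most 5 contacts in a library, the WT values turned to -0.18 for run D and 0.14 for run E, and those of PATZ1 KO were 1.69 and -0.32. Run C, next to the border, had 9.11 and 7.62 in WT and PATZ1 KO ESCs and 10.2 in both MN libraries. Bin chr13:23608001-23616000 of run C, in the annotated span of the H2B gene Hist1h2be but away from its coding sequence, had 2 and 1 contacts with the proximal part in WT and PATZ1 KO ESCs and 29 and 28 in WT and PATZ1 KO MNs. It was named for its low value in WT ESCs. PATZ1 KO ESCs can hold contacts only in the same listed pairs, so their low count is no separate check. The other bins at this end of run C, singled out after their values were seen, also had lower counts in ESCs: chr13:23592001-23600000 had 11, 10, 28 and 27 contacts, chr13:23600001-23608000 had 6, 7, 23 and 25, and chr13:23616001-23624000 with Hist1h1e had 5, 7, 23 and 20. Of these, chr13:23592001-23600000 and chr13:23600001-23608000 are histone bins only through the annotated span of Hist1h2be, whose stem-loop lies at chr13:23585531-23585546. At the opposite end of the run, the bin of Hist1h4h, Hist1h2af and Hist1h3g had ratios of 23.9 and 18.8 in ESCs and 13.9 and 12.6 in MNs, so the total of run C holds both patterns.

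Taken over the whole block, contact between the parts differed little between the cell states. The log2 ratio of MNs over ESCs was 0.15 (-0.04 to 0.33) in WT and 0.29 (0.10 to 0.48) in PATZ1 KO. It turned to -0.27 and -0.22 when counts were divided by bin coverage, to -0.39 and -0.28 when the expectation came from pairs within 5 Mb, and to -0.22 and -0.01 over pairs listed in both cell states, so no direction can be given. For pairs of 2 histone bins it was -0.39 (-0.74 to -0.05) in WT and -0.19 (-0.54 to 0.17) in PATZ1 KO, and for pairs with 1 histone bin 0.43 (0.16 to 0.69) and 0.67 (0.39 to 0.96). Over pairs listed in both cell states these were -0.44 and 0.05 for pairs of 2 histone bins, and -0.20 and -0.11 for pairs with 1. The sign thus turned in both genotypes for pairs with 1, and in PATZ1 KO for pairs of 2 histone bins. Pairs of 2 histone bins accordingly made up 33.9% (29.1 to 38.8) and 34.1% (29.1 to 39.5) of the contacts between the parts in WT and PATZ1 KO ESCs and 23.6% (20.4 to 27.0) and 25.0% (21.73 to 28.4) in WT and PATZ1 KO MNs, where distance alone gave 12.4% and 12.5%. More pairs were listed in MNs. Over pairs listed in both cell states, pairs of 2 histone bins had 4.47 and 4.29 times the contact of other pairs in WT and PATZ1 KO ESCs and 3.54 and 4.56 times in WT and PATZ1 KO MNs, so the lower share in MNs was not seen in PATZ1 KO cells on these pairs.

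Single bins and pairs show where the contacts came from. In the proximal part the bins with the most contact with the distal part for their distance in WT ESCs were both bins of run B, with ratios of 20.9 (Hist1h2ah and Hist1h2bk, 40 contacts) and 18.5 (Hist1h2ag, Hist1h2bj and Hist1h4i, 36 contacts), and the bin of Hist1h2an and Hist1h2bp, with 15.0 and 18 contacts. The bin of Hist1h2ah and Hist1h2bk had 20 contacts in PATZ1 KO ESCs, and 31 and 46 in MNs. The lowest were 3 bins without a protein-coding gene within or beside run A (chr13:21760001-21768000, chr13:21792001-21800000 and chr13:21840001-21848000), with 1, 0 and 1 contacts in WT ESCs. In the distal part the highest were the border bin (23.2), the bin of Hist1h4h, Hist1h2af and Hist1h3g (23.9) and the bin of Hist1h1d (15.8, 36 contacts). Its lowest were chr13:23632001-23640000 and chr13:23640001-23648000, without a protein-coding gene, with 1 and 0 contacts, and the bin of Hist1h2be given above. By counts, the high end was thus made of histone bins and the border bin. Divided by coverage, the bin without a histone gene at chr13:21816001-21824000 came second in the proximal part in WT ESCs with 44.1, and the bin of Hist1h4n beside it had 43.4. At the low end, chr13:21840001-21848000 and chr13:23640001-23648000 were too thinly covered for a value divided by coverage. With that division the others had 6.30 (chr13:21760001-21768000), 0 (chr13:21792001-21800000), 1.82 (the bin of Hist1h2be) and 1.36 (chr13:23632001-23640000) in WT ESCs. All stayed below the 27.6 to 45.1 of the 6 high bins. However, chr13:21760001-21768000 was no longer among the lowest of its part, where for example chr13:21704001-21712000 had 1.40. In WT MNs chr13:21792001-21800000 had 14.7. The 3 histone bins without listed contacts are not in the order.

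The pair of bins with the most contacts in WT ESCs joined Hist1h2ah and Hist1h2bk to Hist1h1d over 1520 kb, the pair whose upstream sequences are shown above. It had 9, 3, 3 and 5 contacts, where at most 0.105 were expected in a library. The next were Hist1h2ah and Hist1h2bk with Hist1h4h, Hist1h2af and Hist1h3g (7, 2, 3 and 3 contacts), and Hist1h2ag, Hist1h2bj and Hist1h4i with the same bin (6, 3, 2 and 1). Pairs chosen for a high count in 1 library are expected to be lower in others, so these counts are not a change between groups. The 2 remaining pairs, with 6 contacts in WT ESCs, joined bins of the proximal part without a protein-coding gene to the border bin. In WT MNs the highest pairs had 7 contacts, chr13:21992001-22000000 with the border bin (6, 1, 7 and 4 over the libraries) and the bin of Hist1h2an and Hist1h2bp with that of Hist1h2bh (2, 2, 7 and 2). Of the 5 highest in WT MNs, 3 had the border bin as partner, and they joined it to bins without a histone gene, 1 of them with Zfp184.

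Within the proximal part, contact in the longest range of distances was lower in ESCs than in MNs. At 8 to 40 kb the proximal part had 1.00, 0.923, 1.03 and 0.962 times the average. At 48 to 120 kb it had 1.17, 1.006, 1.23 and 1.125, higher than at 8 to 40 kb in each library. At 128 to 360 kb it had 0.610 (0.567 to 0.657), 0.484 (0.444 to 0.528), 1.03 (0.958 to 1.12) and 0.989 (0.914 to 1.07). The distal part had 0.636 (0.567 to 0.710), 0.511 (0.447 to 0.581), 0.753 (0.655 to 0.863) and 0.749 (0.651 to 0.859) at 128 to 256 kb, where the WT intervals overlapped. Distant bins of the proximal part thus had less contact for their distance in both ESC libraries than in both MN libraries, with intervals that did not meet. These values were not divided by coverage, which was lower in ESCs. Over all distances, contact within the proximal part divided by coverage had the opposite order, at 1.68 and 1.85 in ESCs and 1.37 and 1.38 in MNs.

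Contact across bins near the ends of the parts was below the chromosome's mean. The insulation score is the log2 of the mean contact over a 248 kb square spanning a bin, against its chromosome mean, so that low values mark boundaries. Its mean over the proximal part was -1.46, -1.67, -0.93 and -0.99, and over the distal part -1.33, -1.48, -0.92 and -0.95. These scores were not divided by bin coverage, which was below the chromosome's mean in both parts and lower in ESCs than in MNs. In WT it was 0.735 and 0.732 times the mean in ESCs, and 0.853 and 0.790 times in MNs. Low scores and their differences between libraries therefore cannot be told apart from low coverage. The lowest value stood at the end of the proximal part next to the Vmn1r stretch, at chr13:22048001-22056000 in WT ESCs with -3.52, below which lay 0.614% of chromosome 13 bins, and 1 bin further with -3.39 and 0.976% in WT MNs. At the far end of the distal part the minimum lay in the bin of Hist1h1a, Hist1h3a and Hist1h4a in WT and PATZ1 KO ESCs (-1.83 and -1.90) and in the bin of Hist1h3b and Hist1h4b in WT and PATZ1 KO MNs (-1.29 and -1.32). The minimum near the start of the proximal part was on Hist1h1b and Hist1h3i in ESCs (-2.03 and -2.30) and on Olfr1359 in MNs (-1.53 and -1.49). At the start of the distal part it stood on the bin of Hist1h4h, Hist1h2af and Hist1h3g in WT ESCs (-1.45) and on that of Hist1h2bh in PATZ1 KO ESCs (-1.58). In MNs it stood on bins in the annotated span of Hist1h2be (-0.91 and -0.98). At this start the values hardly differed from the distal part's own mean in any library, so no boundary can be read there. The search covered 80 kb around each end. The values on Hist1h1b in ESCs and on Hist1h2be in WT MNs lay at that limit and may not be minima.

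Between the parts differences between genotypes lay within counting error, and inside the parts counts were lower in PATZ1 KO cells together with the coverage of the same bins. Between the parts ESCs had a log2 ratio of PATZ1 KO over WT of -0.17 (-0.38 to 0.05) and MNs of -0.03 (-0.18 to 0.13), and 3.73% and 51.9% of same-sized placements had that ratio or a lower one. Divided by bin coverage, which was itself lower in PATZ1 KO cells, the values were 0.20 and 0.25, and no direction can be given. Because a pair must be seen in both libraries to be listed, such ratios are pulled towards 0: at the modelled rate of 0.579 contacts per pair in ESCs a 2-fold difference would leave a log2 ratio of 0.27 among listed contacts, and 0.36 at 0.832 in MNs. A fall of 0.27 lies inside the ESC interval above and a rise of 0.27 outside it, but that interval covers counting error alone. Divided by bin coverage, the ESC value was a rise of 0.20. The 0.27 also assumes 1 rate for all pairs between the parts. In ESCs 31.6% of pairs of 2 histone bins were listed, against 9.09% of pairs with none. Whether contact between the parts differed 2-fold between the genotypes was not tested. The pull is slight within the parts, where a 2-fold difference would leave at least 0.98. There the log2 ratio was -0.16 (-0.21 to -0.12) and -0.15 (-0.20 to -0.09) in ESCs for the proximal and the distal part, and -0.10 (-0.16 to -0.05) and -0.13 (-0.20 to -0.06) in MNs. As low or lower were 1.35% and 4.0% of placements in ESCs and 36.9% and 34.1% in MNs. All contacts of the parts' bins, at any distance and scaled to the library's total on chromosome 13, were lower by about the same amount in ESCs, with -0.15 in each part, and by less in MNs, with -0.07 in each. Divided by bin coverage, contact inside the proximal part was 1.68 in WT and 1.85 in PATZ1 KO ESCs, and inside the distal part 1.71 and 1.89, and in MNs 1.37 and 1.38, and 1.41 in both genotypes. This division scales each pair by both of its bins, and their coverage includes the contacts counted here. The higher PATZ1 KO values in ESCs therefore cannot be separated from the scaling. Lower contact inside the parts and lower coverage of their bins cannot be told apart.

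**Figure D5:**
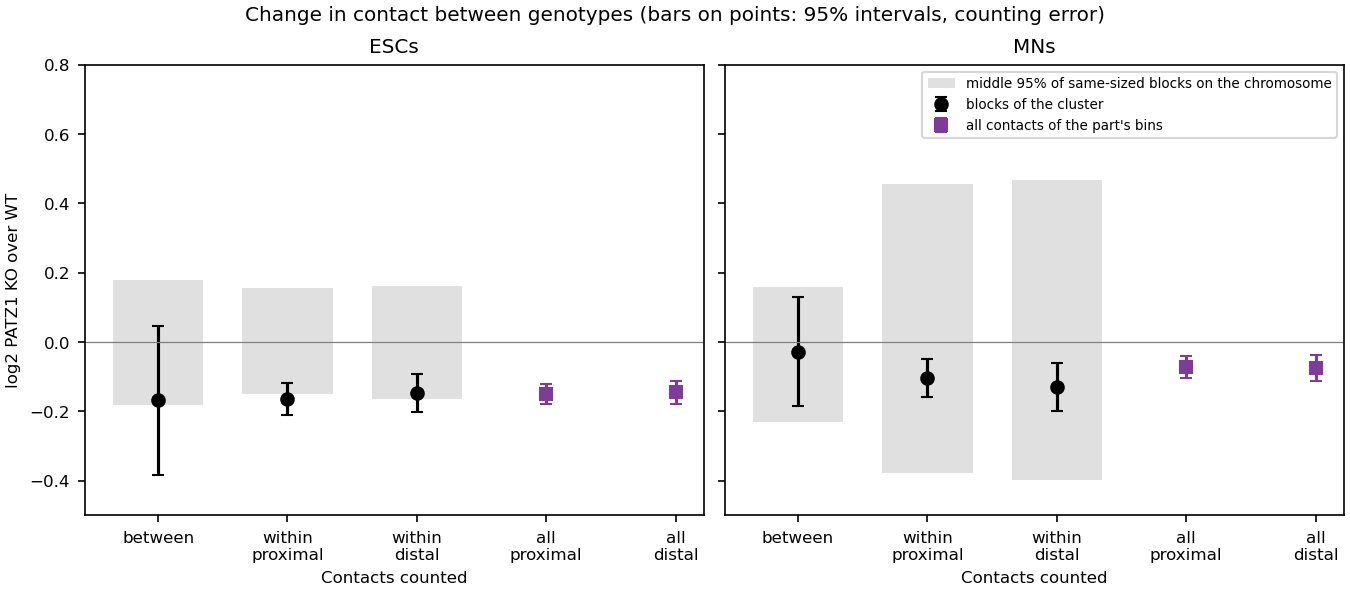
Log2 ratio of PATZ1 KO over WT for contacts between and within the parts (circles) and for all contacts of each part's bins (squares), with 95% intervals for counting error; grey boxes span the middle 95% of same-sized blocks on chromosome 13. Within the parts, before division by coverage, the ESC values of -0.16 and -0.15 lie at the lower edge of the grey boxes or just past it, while the MN values lie well inside them.

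Single pairs within the parts, whose counts were not divided by coverage, were lower in PATZ1 KO ESCs more often than the chromosome's pairs. With at least 20 contacts over both libraries, 341 member pairs could be compared in ESCs and 215 in MNs, all within a part. Past 1.5-fold, 63 of 341 (18.5%) were lower and 23 (6.74%) higher in PATZ1 KO ESCs, against 11.7% lower and 11.1% higher of all such pairs on chromosome 13. In MNs 33 of 215 (15.3%) were lower and 10 (4.65%) higher, against 14% lower and 14.4% higher, so the lower share was near that of the chromosome and the higher share below it. With at least 50 contacts, lower pairs in MNs were 3 of 77 (3.90%) against 7.53%, and in ESCs 6 of 113 (5.31%) against 3.65%. The median log2 ratio of the members was -0.16 in ESCs and -0.20 in MNs, and neighbouring pairs share bins, so the members are not independent.

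The Hist2 genes on chromosome 3, a smaller histone cluster with 10 protein-coding genes at chr3:96216001-96272000, had no contact above average inside the cluster before division by coverage. The ratio was 0.887 (0.820 to 0.958 in WT ESCs), 0.933, 0.885 and 0.75. Over the same distances, up to 48 kb, pairs of histone bins had 1.12 and 1.07 in WT ESCs and 1.04 and 0.954 in WT MNs in the proximal and the distal part. Contact between chromosomes was not analysed here, since all pairs used lie on a single chromosome.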

How the data were processed

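Micro-C libraries were prepared with the Dovetail Micro-C kit. Dovetail aligned the reads, made the contact matrices and set WT beside PATZ1 KO in each cell state with HiCcompare; the submitters' processing notes name the build mm10. Each cell state has 1 deposited table, with 8 kb bin pairs from within chromosomes in its rows. Its raw interaction frequencies are counts of contacts that were deposited unscaled. Its adjusted frequencies are a signal, deposited after both libraries had been fitted to each other over distance. The deposited columns of differences, scores and p-values hold the study's own comparison and were not used. The columns used carry a library number and no sample name. Genes were taken from GENCODE M21 on GRCm38.

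Expected contacts were the mean over all pairs of usable bins on chromosome 13 at each distance, with unlisted pairs as 0 and bins without any listed contact left out. Intervals were exact Poisson intervals for counts and Clopper-Pearson intervals for ratios and shares. The depth of each library is its contacts on chromosome 13, and the precision of a block is set by its own count. With 1 library in each group there was no test. Placements needed 90% usable bins in both windows and did not overlap the members' own. Named bins were, in each part, the 3 with the highest and the 3 with the lowest contact with the other part in WT ESCs, the 5 pairs with the most contacts between the parts in WT ESCs and in WT MNs, and the lowest insulation score within 80 kb of each end. Alternatives used the adjusted frequencies, bin coverage, an expectation from pairs within 5 Mb, listed pairs alone, thinning, other thresholds and other definitions of a histone bin; the Poisson model, the coding-sequence definition and the limit of histone classes to pairs in both lists were added after the data were seen. Runs of histone bins and the 3 ranges of distance were also chosen then. The members and lists were chosen with earlier results of these data known. The scripts were tested on simulated data. Python 3.11.15, numpy 2.4.6, pandas 2.3.3 and scipy 1.17.1 were used.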

Additional observations from a re-analysis of the deposited data

Results flagged for a closer look

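For pairs of 2 histone bins between the parts, PATZ1 KO over WT (log2) lay on opposite sides of 0: ESCs had -0.16 (-0.53 to 0.22), MNs 0.052 (-0.27 to 0.38). For pairs without a histone bin ESCs had 0.020 (-0.45 to 0.49) and MNs -0.13 (-0.48 to 0.22). Each rests on 1 library a group, every interval includes 0, and the difference between cell states was not tested.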

How the results depend on the processing

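Values are in the order WT ESCs, their knockout, WT MNs, their knockout, and the causes of the shifts were not tested. Contact between the parts, against 6.07, 5.41, 6.73 and 6.60, was 12.96, 14.9, 10.8 and 12.8 divided by bin coverage, 7.52, 6.81, 5.74 and 5.60 with the expectation from pairs within 5 Mb, 1.503, 1.34, 1.24 and 1.22 over listed pairs, and 2.60 in ESCs and 2.92 in MNs with unlisted pairs modelled. Within the proximal part contact was 1.68, 1.85, 1.37 and 1.38 divided by coverage and 1.07, 0.979, 1.18 and 1.03 against pairs within 5 Mb; pairs at least 40 kb apart had 0.813 in PATZ1 KO ESCs, and 1.17 and 1.07 in MNs. Within the distal part it was 1.71, 1.89, 1.41 and 1.41 divided by coverage, 1.07, 0.988 and 1.005 against pairs within 5 Mb (the first 3 libraries), and 0.891 and 0.799 in ESCs at 40 kb or more. Gene-dense placements above the parts were 1.12% in PATZ1 KO ESCs, 0.782% and 0.823% in MNs.

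Divided by coverage, PATZ1 KO over WT (log2) between the parts was 0.20 in ESCs, and 0.25 in MNs, against -0.17 and -0.03. MNs over ESCs, 0.15 in WT and 0.29 in PATZ1 KO, became -0.27 and -0.22 divided by coverage, -0.39 and -0.28 against pairs within 5 Mb, -0.27 and -0.14 over listed pairs, and -0.22 and -0.0072 over pairs in both lists. With unlisted pairs modelled it was 0.17 for both genotypes together. Pairs of 2 histone bins against other pairs had 2.15 in ESCs and 1.65 in MNs with unlisted pairs modelled, 4.87 divided by coverage and 4.72 without neighbours of histone bins in PATZ1 KO ESCs, and 3.54 and 4.56 in MNs over pairs in both lists. Past 1.5-fold with at least 50 contacts, 6 of 113 pairs were lower (5.31%, against 3.65% on the chromosome) and 2 higher (1.77% against 3.62%) in ESCs, and 3 of 77 lower (3.90% against 7.53%) and 0 higher (against 8.28%) in MNs. Past 2-fold, 24 of 341 were lower (7.04% against 3.42%) and 6 higher (1.76% against 3.21%) in ESCs, and 9 of 215 lower (4.19% against 4.07%) and 4 higher (1.86% against 4.25%) in MNs. No paired analysis was possible because each group has 1 library. Between the parts depth limits single pairs, none of which had 20 contacts.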
